A study of Mus musculus with 12 samples.

Results

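The genes described here build cholesterol from acetyl-CoA, sense its level in the endoplasmic reticulum, move it inside the cell and export it. They were chosen by name, as 31 genes of these pathways, with no threshold on their values but with earlier results of these data known. Of the 31, 30 were found by gene symbol among the 15720 identified genes of the expression table, and Abcg1 was not analysed here. Of these 30, 29 reached a mean of 0.5 FPKM over the libraries and were tested among 11208 genes; the nuclear receptor gene Nr1h3 lay below that level. FPKM counts fragments per kilobase of gene relative to the size of the library, so levels of different genes can be set side by side.

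All libraries came from EMS404 cells, an SV40-immortalized line of mouse hepatic stellate cells (strain C57Bl6) that carries human TLR4, and each group had 3 libraries. The groups were Bmal1 siRNA with TGFb, scrambled siRNA with TGFb, Bmal1 siRNA with vehicle and scrambled siRNA with vehicle. TGFb, the cytokine that drives stellate cells towards the matrix-producing state of fibrosis, was given at 10 ng/mL for 24 h, starting 48 h after transfection. BMAL1, encoded by Arntl, is the partner of CLOCK in the core circadian activator. The comparisons ask how the cholesterol genes respond to TGFb, and whether that response differs when Bmal1 is targeted. A single immortalized line was used.

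The targeted gene, Arntl, stood at 5.05, 4.01 and 4.0 FPKM with Bmal1 siRNA and TGFb, 10.5, 10.8 and 10.9 FPKM with scrambled siRNA and TGFb, 3.90, 3.87 and 3.59 FPKM with Bmal1 siRNA and vehicle, and 5.43, 5.19 and 4.91 FPKM with scrambled siRNA and vehicle. Every Bmal1 siRNA library lay below every scrambled library of the same treatment, so the values went with the labels. The siRNA changed Arntl by log2 -1.13 under TGFb (limma adjusted p = 1.38e-06) and by log2 -0.37 under vehicle (adjusted p = 0.0490, with values up to 0.21 in alternative fits). Of 13 stellate and fibroblast markers 11 were in the table and 10 were tested. The stellate markers Lrat and Reln were not found in the table. Of the 10 tested, 4 rose and 2 fell with TGFb and Bmal1 siRNA, and 4 rose and 3 fell with TGFb and scrambled siRNA. Vimentin (Vim, 962 to 1114 FPKM) was abundant, desmin (Des, 0.52 to 1.23 FPKM) was low, and Lum did not exceed 0.19 FPKM. Smooth muscle actin (Acta2), the marker of activated stellate cells, ran from 114 to 188 FPKM with Bmal1 siRNA and TGFb, 239 to 241 FPKM with scrambled siRNA and TGFb, 51.7 to 57.9 FPKM with Bmal1 siRNA and vehicle, and 51.5 to 56.6 FPKM with scrambled siRNA and vehicle. Decorin (Dcn) went the other way, at 97.2 to 297 FPKM, 46.6 to 73.3 FPKM, 330 to 423 FPKM and 265 to 376 FPKM in the same order of groups, and so did the receptor Pdgfra, at 17.1 to 31.3 FPKM, 10.7 to 11.2 FPKM, 40.7 to 45.7 FPKM and 38.3 to 47.9 FPKM. The summed marker level was 6139 to 6426 FPKM with Bmal1 siRNA and TGFb, 6798 to 7163 with scrambled siRNA and TGFb, 5338 to 5650 with Bmal1 siRNA and vehicle, and 4962 to 5340 with scrambled siRNA and vehicle. All 4 endothelial markers stayed at or below 0.15 FPKM in every library, as did 3 of the 4 leukocyte markers measured. The other leukocyte marker, Cd68, ran from 2.63 to 4.71 FPKM and fell with TGFb and scrambled siRNA (log2 -0.45). Of 4 epithelial markers Krt19, Krt7 and Sox9 reached 5.61, 2.74 and 3.61 FPKM; with scrambled siRNA and TGFb Krt19 and Krt7 fell and Sox9 rose, and with Bmal1 siRNA and TGFb Krt7 fell. Of 3 hepatocyte markers in the table Apoa2 reached 2.99 FPKM. Their part in the results below was not tested. Along the first principal component, which held 71% of the variance of the tested genes, the second library of Bmal1 siRNA with TGFb lay at -5.13, against 8.40 and 12.99 for the other libraries of its group and -17.8 to -15.4 for the vehicle libraries. That library also held the lowest Acta2 level and the highest Dcn and Pdgfra levels of its group. Counts over all 29 genes and over the neighbouring lists below are therefore also given without it; by step of the pathway, the counts of genes called with TGFb were the same without it, except that Hsd17b7 then also fell with scrambled siRNA.

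Cholesterol synthesis starts in the mevalonate pathway, passes through squalene to lanosterol, and ends with a series of reactions that trim lanosterol to cholesterol. Transcription of these enzymes is driven mainly by SREBP2 (Srebf2), which is held in the endoplasmic reticulum with its escort SCAP by the INSIG proteins when sterol is plentiful and is carried to the Golgi for cleavage when sterol runs low. LXR receptors (Nr1h2, Nr1h3) sense oxysterols and raise exporters such as ABCA1 and the ubiquitin ligase MYLIP, which removes lipoprotein receptors from the surface. Stellate cells store retinyl esters with other neutral lipids and lose this store when they are activated.

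Promoters of the cholesterol genes were searched for the letters of SREBP and clock sites in windows of 300 bases around each RefSeq transcription start (build GRCm38.p6), most of them upstream of it. Of the 30 genes in the table, 25 had at least 1 window, with 34 windows in all. Fdps, Fdft1, Sqle, Npc1 and Stard4 had none and were not searched. Both strands were read for a sterol response element (TCACNCCAC), the NF-Y box that often stands beside it (CCAAT), the GC box of SP1 (GGGCGG) and the E-box bound by CLOCK and BMAL1 (CACGTG). The exact letters of the sterol response element were in 1 of the 34 windows, that of Hmgcs1 (2.94%, against 1.24% of all 32851 windows). Variants of these letters were not searched, so genes without a match may still hold such an element. The NF-Y box was in 61.8% of them (37.4% of all windows), the GC box in 76.5% (35.7%) and the E-box in 20.6% (7.15%), the last in Abca1, Dhcr7, Hsd17b7, Insig1, Sc5d and Scap. By gene, the E-box was in 6 of the 25, against 8.09% of all genes with a window. The windows of a gene can overlap, as those of Scap do. All windows were not matched to these genes for expression or base content, and the shares were not tested. These matches describe the letters in the windows and are not binding sites found in these cells.

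The windows of 3 genes are shown 5′ to 3′ with matches to the sterol response element, the NF-Y box on either strand and the E-box in capitals. Hmgcs1 is shown because, of the genes with a window, it alone matched the letters of the sterol response element. Its window is chr13:119690101-119690400 on the plus strand, with that element starting 137 bases before the start and 4 NF-Y boxes on the minus strand. Dhcr7 (chr7:143823149-143823448, plus strand, 1 of its 3 annotated starts) and Cyp51 (chr5:4104648-4104947, minus strand) were added after their values were seen, because they were furthest apart in the test of whether the TGFb responses differ between the siRNAs. The Dhcr7 window was picked because it has an E-box, which reads the same on both strands. It is the sole Dhcr7 window that has one, and of the other 2, 1 holds an NF-Y box. Of the other genes called in that test, Scap holds an E-box, and Mvk, Acat2 and Tm7sf2 hold none. Abca1, Hsd17b7, Insig1 and Sc5d hold one and were not called in it. A link between the E-box and the responses was not tested. The Cyp51 window has an NF-Y box and no E-box.
Hmgcs1: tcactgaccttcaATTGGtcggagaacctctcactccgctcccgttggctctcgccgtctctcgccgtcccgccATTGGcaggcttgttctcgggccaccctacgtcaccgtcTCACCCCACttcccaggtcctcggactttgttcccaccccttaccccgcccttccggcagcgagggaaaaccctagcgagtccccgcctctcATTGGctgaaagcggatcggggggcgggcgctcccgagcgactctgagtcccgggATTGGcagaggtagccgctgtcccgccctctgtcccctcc
Dhcr7: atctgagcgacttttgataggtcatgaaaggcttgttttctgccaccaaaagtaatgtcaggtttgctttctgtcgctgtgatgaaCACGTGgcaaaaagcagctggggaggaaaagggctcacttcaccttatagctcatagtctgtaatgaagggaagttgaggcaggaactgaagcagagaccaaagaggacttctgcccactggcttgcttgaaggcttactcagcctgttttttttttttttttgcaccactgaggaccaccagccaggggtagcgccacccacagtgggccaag
Cyp51: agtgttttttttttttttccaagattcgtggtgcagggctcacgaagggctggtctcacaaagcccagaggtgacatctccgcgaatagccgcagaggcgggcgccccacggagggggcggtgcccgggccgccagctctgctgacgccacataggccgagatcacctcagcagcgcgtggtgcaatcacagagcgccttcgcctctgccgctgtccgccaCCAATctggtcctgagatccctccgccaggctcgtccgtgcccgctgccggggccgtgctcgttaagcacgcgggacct

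Levels spread widely among the genes. Over the 12 libraries the highest mean was that of farnesyl diphosphate synthase (Fdps, 174 FPKM), followed by Srebf2 (139 FPKM) and the methylsterol oxidase Msmo1 (104 FPKM). The lowest means were those of Nr1h3 (0.422 FPKM), Mylip (0.870 FPKM) and Abca1 (1.54 FPKM). Among the 18 synthesis enzymes the lowest was Hsd17b7, at 6.73 FPKM. Summed over those 18 enzymes, the level was 882, 957 and 896 FPKM with Bmal1 siRNA and TGFb, 816, 865 and 842 FPKM with scrambled siRNA and TGFb, 1129, 1138 and 1114 FPKM with Bmal1 siRNA and vehicle, and 1118, 1095 and 1090 FPKM with scrambled siRNA and vehicle. Every TGFb library lay below every vehicle library, and the second library was the highest of the 3 in both TGFb groups. The plot of the genes in every library shows where single genes depart from this split.

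**Figure D1:**
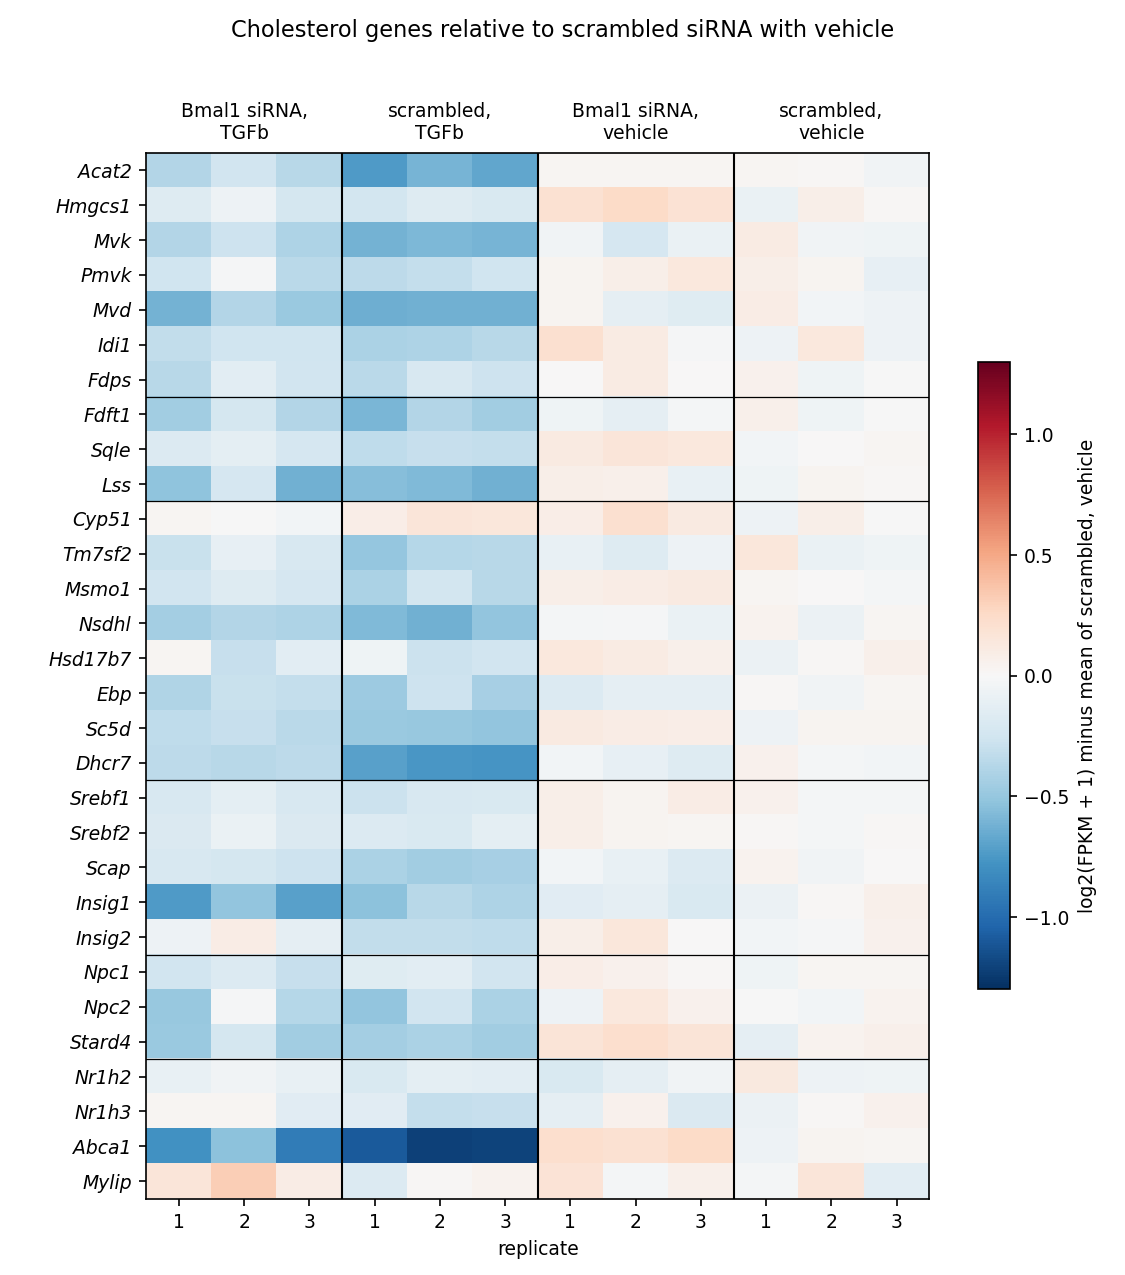
Heat map of the 30 genes (rows, in pathway order, with lines between the roles) in the 12 libraries (columns, by group and replicate); colour gives log2(FPKM + 1) minus the mean of scrambled siRNA with vehicle. The 6 TGFb columns are mostly blue, Abca1 is darkest with scrambled siRNA and TGFb, and Cyp51 and Mylip stay near white or red.

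TGFb lowered most of the genes with either siRNA. With scrambled siRNA, 26 of the 29 tested genes fell and 1 rose at a limma adjusted p under 0.05, which is called here; over all tested genes 45.5% were called, 29.1% lower and 16.4% higher. In bulk RNA, fewer cells of a type and less RNA per cell cannot be told apart. The median log2 change of the 29 was -0.39, against -0.05 over all tested genes. With Bmal1 siRNA, 22 of the 29 fell and none rose, also at an unadjusted p under 0.05, against 19.0% called over all tested genes, 10.1% lower and 8.9% higher. The median was then -0.29, against 0.00349 over all tested genes. Without the second library of Bmal1 siRNA with TGFb the counts were 27 lower and 1 higher with scrambled siRNA, and 22 lower with Bmal1 siRNA. With libraries rescaled by the median of their ratios, a scaling that moved the median of all genes by less than 0.1, the counts were 22 lower with Bmal1 siRNA, and 23 lower and 1 higher with scrambled siRNA. Of all tested genes 10.1% were then lower and 8.71% higher with Bmal1 siRNA, and 22.5% lower and 22.3% higher with scrambled siRNA.

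**Figure D2:**
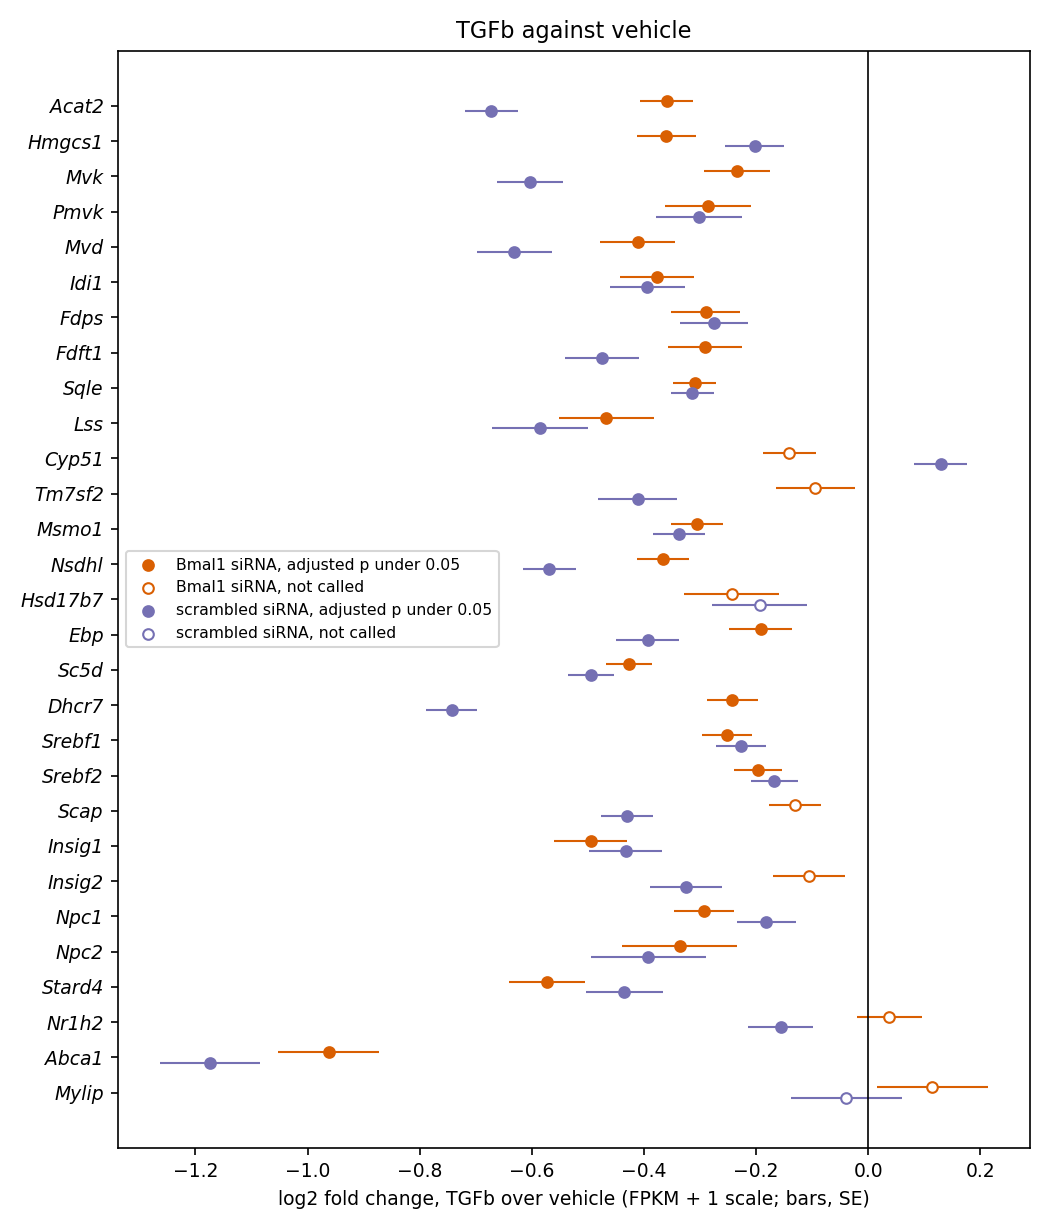
Log2 fold change of TGFb over vehicle for the 29 tested genes, in pathway order, with Bmal1 siRNA (orange, upper point) and scrambled siRNA (purple, lower point); bars are standard errors and open points were not called. Nearly all points lie left of 0, Abca1 is furthest left, and Cyp51 with scrambled siRNA is the sole called point to the right.

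All 7 genes of the mevalonate steps fell with TGFb under both siRNAs. Acat2, the cytosolic thiolase that joins acetyl-CoA units at the entrance of the pathway, stood at 49.7, 54.6 and 50.4 FPKM with Bmal1 siRNA and TGFb, 38.8, 42.5 and 40.2 FPKM with scrambled siRNA and TGFb, 66.2, 66.4 and 66.5 FPKM with Bmal1 siRNA and vehicle, and 66.3, 65.8 and 63.1 FPKM with scrambled siRNA and vehicle. The TGFb libraries lay below the vehicle libraries with either siRNA, and those with scrambled siRNA were lowest. Its log2 change with TGFb was -0.36 with Bmal1 siRNA (SE 0.048, adjusted p = 0.000297) and -0.67 with scrambled siRNA (SE 0.048, adjusted p = 2.11e-07). Mevalonate kinase (Mvk), which adds the first phosphate to mevalonate, was at 39.7, 43.1 and 39.4 FPKM with Bmal1 siRNA and TGFb, 33.7, 34.4 and 33.9 FPKM with scrambled siRNA and TGFb, 50.5, 44.8 and 48.9 FPKM with Bmal1 siRNA and vehicle, and 56.4, 50.4 and 50.1 FPKM with scrambled siRNA and vehicle. No TGFb library reached a vehicle library of its siRNA. Its TGFb change was -0.23 with Bmal1 siRNA (SE 0.059, adjusted p = 0.0146, up to 0.0709 when a library of its own 2 groups was left out) and -0.60 with scrambled siRNA (SE 0.059, adjusted p = 3.15e-06). Mvd, the decarboxylase that forms isopentenyl diphosphate, changed by -0.41 with Bmal1 siRNA and -0.63 with scrambled siRNA.

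Of the remaining mevalonate genes, Hmgcs1 had the values that differed most between the siRNAs. Hmgcs1, the synthase that makes HMG-CoA, averaged 53.9 ± 3.15 FPKM with Bmal1 siRNA and TGFb against 69.4 ± 1.53 FPKM with Bmal1 siRNA and vehicle, and 51.9 ± 1.41 FPKM with scrambled siRNA and TGFb against 59.9 ± 3.45 FPKM with scrambled siRNA and vehicle (SD, n = 3 each). Its log2 changes were -0.36 and -0.20 in that order, and their difference was not called (-0.16, 95% interval -0.32 to 0.00498, adjusted p = 0.182). It was called in 1 of 23 alternatives, the fit with array weights (limma adjusted p = 0.0079), which did not fully converge. In the other alternatives the adjusted p reached 0.353. Idi1, which interconverts the isoprenoid units, changed by -0.38 with Bmal1 siRNA and -0.39 with scrambled siRNA, and phosphomevalonate kinase (Pmvk) by -0.29 and -0.30. The Pmvk call with Bmal1 siRNA was lost in 5 of 24 alternatives, 4 of which left out a library of that siRNA. Fdps, whose product feeds both sterols and protein prenylation, changed by -0.29 with Bmal1 siRNA and -0.28 with scrambled siRNA; it shares 1124 exon bases with the gene model Gm43738 on the same strand, so reads of both cannot be told apart.

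From squalene to lanosterol, all 3 genes fell under both siRNAs. Squalene synthase (Fdft1), the first step committed to sterols, changed by -0.29 with Bmal1 siRNA (adjusted p = 0.00793) and -0.48 with scrambled siRNA (adjusted p = 6.18e-05). It shares 774 exon bases with Ctsb on the opposite strand and, with strand use unknown, their reads cannot be told apart; the same holds for Npc1 (511 bases, Rmc1) and Srebf1 (109 bases, Rai1). Scap, Hmgcs1, Lss and Idi1 share exon bases with noncoding or unclassified models on the opposite strand. Squalene epoxidase (Sqle), a rate-controlling enzyme, changed by -0.31 with each siRNA. Lanosterol synthase (Lss), which closes the sterol rings, changed by -0.47 with Bmal1 siRNA and -0.59 with scrambled siRNA; its level was 28.8 FPKM in the second library of Bmal1 siRNA with TGFb, against 23.1 and 21.5 FPKM in the other libraries of that group.

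With scrambled siRNA, the 8 enzymes from lanosterol to cholesterol held both the largest fall and the sole rise among the 18 synthesis enzymes. With scrambled siRNA 6 fell, 1 rose and Hsd17b7 was not called (log2 -0.19, adjusted p = 0.0761); with Bmal1 siRNA 5 fell, and Cyp51 (-0.14, adjusted p = 0.0536), Tm7sf2 (-0.09, adjusted p = 0.383) and Hsd17b7 (-0.24, adjusted p = 0.0600) were not called. Dhcr7, the reductase that turns dehydrocholesterol into cholesterol, was at 50.3, 49.5 and 50.5 FPKM with Bmal1 siRNA and TGFb, 38.8, 37.4 and 37.3 FPKM with scrambled siRNA and TGFb, 62.4, 59.2 and 56.8 FPKM with Bmal1 siRNA and vehicle, and 66.7, 62.9 and 62.5 FPKM with scrambled siRNA and vehicle. The 4 groups did not overlap. Mean FPKM fell by 15.8% with TGFb and Bmal1 siRNA (log2 -0.24, SE 0.045, adjusted p = 0.00257) and by 40.9% with TGFb and scrambled siRNA (log2 -0.74, SE 0.045, adjusted p = 6.12e-08).

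Cyp51, the demethylase that acts first on lanosterol, went the other way with scrambled siRNA. It stood at 74.2, 72.8 and 71.3 FPKM with Bmal1 siRNA and TGFb, 77.8, 81.4 and 80.9 FPKM with scrambled siRNA and TGFb, 77.7, 84.3 and 79.1 FPKM with Bmal1 siRNA and vehicle, and 69.8, 76.9 and 72.7 FPKM with scrambled siRNA and vehicle. TGFb libraries were all below vehicle libraries with Bmal1 siRNA and all above them with scrambled siRNA. The rise with scrambled siRNA was log2 0.13 (SE 0.047, adjusted p = 0.0394) and was lost in 8 of 24 alternatives, 5 of which left out a library, with an adjusted p of up to 0.126. Cyp51 shares 166 exon bases with Akap9 on the opposite strand.

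Tm7sf2, a sterol reductase, was listed on 2 lines under the same identifier, and the line with the higher mean was used. That line gave 15.7, 17.9 and 16.6 FPKM with Bmal1 siRNA and TGFb, 13.4, 14.8 and 14.9 FPKM with scrambled siRNA and TGFb, 18.1, 17.2 and 18.5 FPKM with Bmal1 siRNA and vehicle, and 21.5, 18.2 and 18.6 FPKM with scrambled siRNA and vehicle. TGFb and vehicle libraries overlapped with Bmal1 siRNA but not with scrambled siRNA (log2 -0.41, adjusted p = 0.000355). On the other line the gene fell with TGFb under both siRNAs, by -0.82 with Bmal1 siRNA (adjusted p = 0.00183) and -0.87 with scrambled siRNA (adjusted p = 0.000299). Tm7sf2 shares 532 exon bases with Vps51 on the same strand, and the sources used here do not say which transcripts each line counts.

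The other enzymes of this stretch fell in all cases. Nsdhl, a dehydrogenase that removes a carboxyl group from the sterol, changed by -0.37 with Bmal1 siRNA and -0.57 with scrambled siRNA. The desaturase Sc5d changed by -0.43 and -0.49, the methylsterol oxidase Msmo1 by -0.31 and -0.34, and the sterol isomerase Ebp by -0.19 and -0.39 in the same order. The Ebp call with Bmal1 siRNA was lost when any 1 of 4 libraries of that siRNA was left out (adjusted p of up to 0.12).

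**Figure D3:**
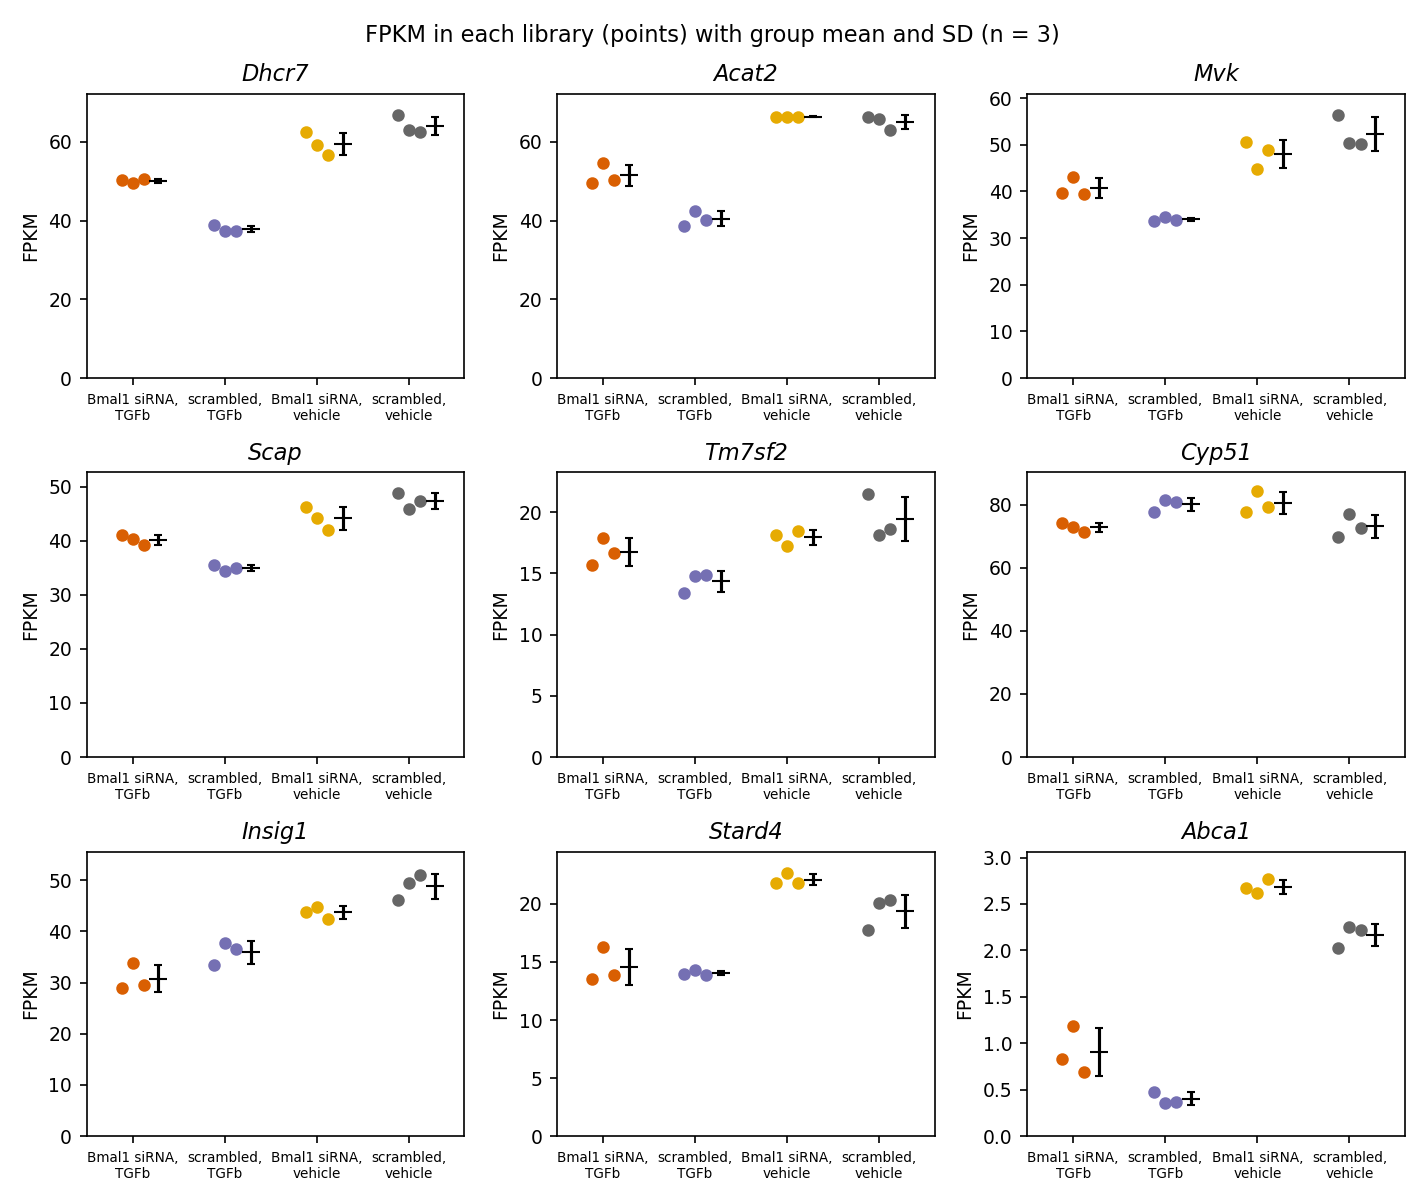
FPKM in each library (points) for 9 genes in the 4 groups, with the group mean and SD (n = 3) as a black bar beside the points; every axis starts at 0. Dhcr7, Acat2, Mvk and Scap are lowest with scrambled siRNA and TGFb, Insig1 has its lowest mean with Bmal1 siRNA and TGFb, and Abca1 is low in all TGFb libraries.

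All 5 genes of sterol sensing fell with TGFb and scrambled siRNA, and 3 of the 5 fell with Bmal1 siRNA. Srebf2 was at 127, 137 and 127 FPKM with Bmal1 siRNA and TGFb, 129, 126 and 133 FPKM with scrambled siRNA and TGFb, 153, 148 and 147 FPKM with Bmal1 siRNA and vehicle, and 146, 143 and 146 FPKM with scrambled siRNA and vehicle. TGFb libraries lay below vehicle libraries, and the log2 changes were small, at -0.20 with Bmal1 siRNA (adjusted p = 0.00596) and -0.17 with scrambled siRNA (adjusted p = 0.00580, but 0.0523 with median-of-ratios scaling). Srebf1, whose products act mainly on fatty acid genes, was at 33.4, 35.5 and 33.4 FPKM with Bmal1 siRNA and TGFb, 31.8, 33.5 and 33.6 FPKM with scrambled siRNA and TGFb, 40.9, 39.9 and 41.6 FPKM with Bmal1 siRNA and vehicle, and 40.3, 37.9 and 38.0 FPKM with scrambled siRNA and vehicle. Here too the treatments did not overlap, with log2 changes of -0.25 with Bmal1 siRNA (adjusted p = 0.00202) and -0.23 with scrambled siRNA (adjusted p = 0.00115).

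Insig1, which retains the SCAP complex and is itself an SREBP target, was at 28.9, 33.9 and 29.6 FPKM with Bmal1 siRNA and TGFb, 33.4, 37.7 and 36.7 FPKM with scrambled siRNA and TGFb, 43.9, 44.9 and 42.4 FPKM with Bmal1 siRNA and vehicle, and 46.1, 49.5 and 50.9 FPKM with scrambled siRNA and vehicle. TGFb libraries were below vehicle libraries with either siRNA, by log2 -0.49 with Bmal1 siRNA (SE 0.065, adjusted p = 0.000277) and -0.43 with scrambled siRNA (SE 0.065, adjusted p = 0.000126). Its relative Insig2 averaged 6.85 ± 0.588 FPKM with Bmal1 siRNA and TGFb against 7.44 ± 0.405 FPKM with Bmal1 siRNA and vehicle, which was not called (adjusted p = 0.276), and 5.37 ± 0.0289 FPKM with scrambled siRNA and TGFb against 6.99 ± 0.272 FPKM with scrambled siRNA and vehicle (SD, n = 3 each; log2 -0.33, adjusted p = 0.00105). Scap, the sterol sensor and escort of SREBP, was at 41.0, 40.4 and 39.2 FPKM with Bmal1 siRNA and TGFb, 35.4, 34.3 and 35.0 FPKM with scrambled siRNA and TGFb, 46.3, 44.1 and 41.9 FPKM with Bmal1 siRNA and vehicle, and 48.9, 45.9 and 47.4 FPKM with scrambled siRNA and vehicle. Scrambled siRNA with TGFb was the lowest group, with no overlap (log2 -0.43, SE 0.046, adjusted p = 6.48e-06), and the TGFb change with Bmal1 siRNA was not called (-0.13, adjusted p = 0.0641).

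The 3 genes of sterol transport fell under both siRNAs. Stard4, a cytosolic carrier of cholesterol and an SREBP target, was at 13.5, 16.3 and 13.9 FPKM with Bmal1 siRNA and TGFb, 13.9, 14.3 and 13.9 FPKM with scrambled siRNA and TGFb, 21.8, 22.6 and 21.8 FPKM with Bmal1 siRNA and vehicle, and 17.8, 20.1 and 20.3 FPKM with scrambled siRNA and vehicle. TGFb and vehicle libraries were well apart, and the log2 change was -0.57 with Bmal1 siRNA (SE 0.068, adjusted p = 0.000160) and -0.44 with scrambled siRNA (SE 0.068, adjusted p = 0.000185). Npc1, which lets cholesterol out of late endosomes, changed by -0.29 with Bmal1 siRNA (adjusted p = 0.00225) and by -0.18 with scrambled siRNA (adjusted p = 0.0137, up to 0.0902 in alternatives). Its soluble partner Npc2 changed by -0.34 with Bmal1 siRNA (adjusted p = 0.0359, lost in 7 of 24 alternatives) and -0.39 with scrambled siRNA (adjusted p = 0.00696).

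Among the LXR and efflux genes, Abca1 had the largest change of the 29. Abca1, which loads cholesterol onto apolipoprotein particles, was at 0.83, 1.19 and 0.69 FPKM with Bmal1 siRNA and TGFb, 0.48, 0.36 and 0.37 FPKM with scrambled siRNA and TGFb, 2.67, 2.62 and 2.77 FPKM with Bmal1 siRNA and vehicle, and 2.03, 2.25 and 2.22 FPKM with scrambled siRNA and vehicle. The 4 groups did not overlap. Mean FPKM fell by 66.4% with TGFb and Bmal1 siRNA (log2 -0.96, SE 0.090, adjusted p = 4.04e-05) and by 81.4% with TGFb and scrambled siRNA (log2 -1.17, SE 0.090, adjusted p = 3.88e-07). The log2(FPKM + 1) scale understates such a low gene: with a pseudocount of 0.1 the changes were -1.50 and -2.18 in the same order. From the rough depth of the libraries, the lowest Abca1 value rested on about 100 fragments.

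The receptors themselves changed less. Nr1h2, the widely expressed LXR, was not called with Bmal1 siRNA (log2 0.04, adjusted p = 0.698) and fell with scrambled siRNA (log2 -0.16, adjusted p = 0.0425), a call lost in 15 of 24 alternatives (log2 -0.09 without the first library of scrambled siRNA with vehicle). Nr1h3, the other LXR, was listed at 0.54, 0.54 and 0.36 FPKM with Bmal1 siRNA and TGFb, 0.36, 0.22 and 0.23 FPKM with scrambled siRNA and TGFb, 0.39, 0.57 and 0.32 FPKM with Bmal1 siRNA and vehicle, and 0.43, 0.53 and 0.57 FPKM with scrambled siRNA and vehicle, which is too low for the test as fitted. Fitted with no filter on low values, it fell with TGFb and scrambled siRNA (log2 -0.25, adjusted p = 0.0218), where the groups did not overlap, and was not called with Bmal1 siRNA (0.05, adjusted p = 0.696). Mylip was at 0.99, 1.23 and 0.92 FPKM with Bmal1 siRNA and TGFb, 0.58, 0.81 and 0.85 FPKM with scrambled siRNA and TGFb, 1.03, 0.76 and 0.88 FPKM with Bmal1 siRNA and vehicle, and 0.76, 1.0 and 0.63 FPKM with scrambled siRNA and vehicle. TGFb and vehicle libraries of Mylip overlapped with either siRNA, and neither change was called (log2 0.11 with Bmal1 siRNA, 95% interval -0.10 to 0.33; -0.04 with scrambled siRNA, 95% interval -0.25 to 0.18).

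Under vehicle, Bmal1 siRNA against scrambled siRNA gave no called gene among the 29, where 0.66% of all tested genes were called by limma (0.294% higher and 0.366% lower); 10 of the 29 had an unadjusted p under 0.05 (34.5%), beside 21.7% of all tested genes. The median log2 difference was 0.04, against 0.00812 over all tested genes. Hmgcs1 had the smallest p, at 68.5, 71.1 and 68.4 FPKM with Bmal1 siRNA and 56.2, 63.1 and 60.4 FPKM with scrambled siRNA; it is named after its values were seen. Its libraries did not overlap (log2 0.21, SE 0.053, adjusted p = 0.0755). It was called in 4 of 24 alternatives, with a limma adjusted p from 0.00811 to 0.299 over all of them. One of the 4 left out the second library of Bmal1 siRNA with TGFb (adjusted p = 0.0346), which is in neither group compared here. For Srebf2 the difference was 0.04 (95% interval -0.05 to 0.13) and for Acat2 0.03 (95% interval -0.07 to 0.13).

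Under TGFb, Bmal1 siRNA against scrambled siRNA gave 10 genes higher and 1 lower of the 29, beside 23.2% called over all tested genes, 16.0% higher and 7.16% lower. The median log2 difference was 0.12, against 0.06 over all tested genes. The higher genes were 7 of the 18 synthesis enzymes with Scap, Insig2 and Abca1, and the lower gene was Insig1. This split moved with the scaling. With median-of-ratios scaling, which gave the 3 libraries of scrambled siRNA with TGFb factors of 0.964 to 0.967 against 1.01 to 1.02 for the other libraries, 5 genes were higher and 2 lower, beside 8.67% of all genes higher and 10.7% lower. With equal totals 6 were higher and 2 lower. Without the second library of Bmal1 siRNA with TGFb 7 were higher and 1 lower, and when only the libraries under TGFb were fitted 7 were called.

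Abca1 had the largest difference, 0.90 ± 0.258 FPKM with Bmal1 siRNA and TGFb against 0.40 ± 0.0666 FPKM with scrambled siRNA and TGFb (SD, n = 3 each; log2 0.43, SE 0.090, adjusted p = 0.00450). Dhcr7 averaged 50.1 ± 0.503 FPKM against 37.9 ± 0.861 FPKM in the same order (log2 0.40, SE 0.045, adjusted p = 6.70e-05), and Acat2 51.6 ± 2.62 FPKM against 40.5 ± 1.86 FPKM (log2 0.34, SE 0.048, adjusted p = 0.000310). Insig2 was 6.85 FPKM against 5.37 FPKM (log2 0.30, adjusted p = 0.00557). These 4 genes were called in every alternative, and their libraries did not overlap between the siRNAs. Mvk (0.25), Tm7sf2 (0.21), Scap (0.20), Sc5d (0.17), Nsdhl (0.16) and Sqle (0.14) were higher as reported, and each lost its call in at least 1 alternative. Insig1, a brake on SREBP, averaged 30.8 ± 2.68 FPKM with Bmal1 siRNA and TGFb and 35.9 ± 2.24 FPKM with scrambled siRNA and TGFb (SD, n = 3 each). Its libraries overlapped, and the difference (log2 -0.22, adjusted p = 0.0288) was lost in 5 of 24 alternatives, with an adjusted p of up to 0.0999. Mylip (0.23, adjusted p = 0.112), Srebf1 (0.05, adjusted p = 0.480) and Srebf2 (0.01, adjusted p = 0.853) were not called, and the values of Srebf1 and Srebf2 were -0.02 and -0.06 with median-of-ratios scaling.

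**Figure D4:**
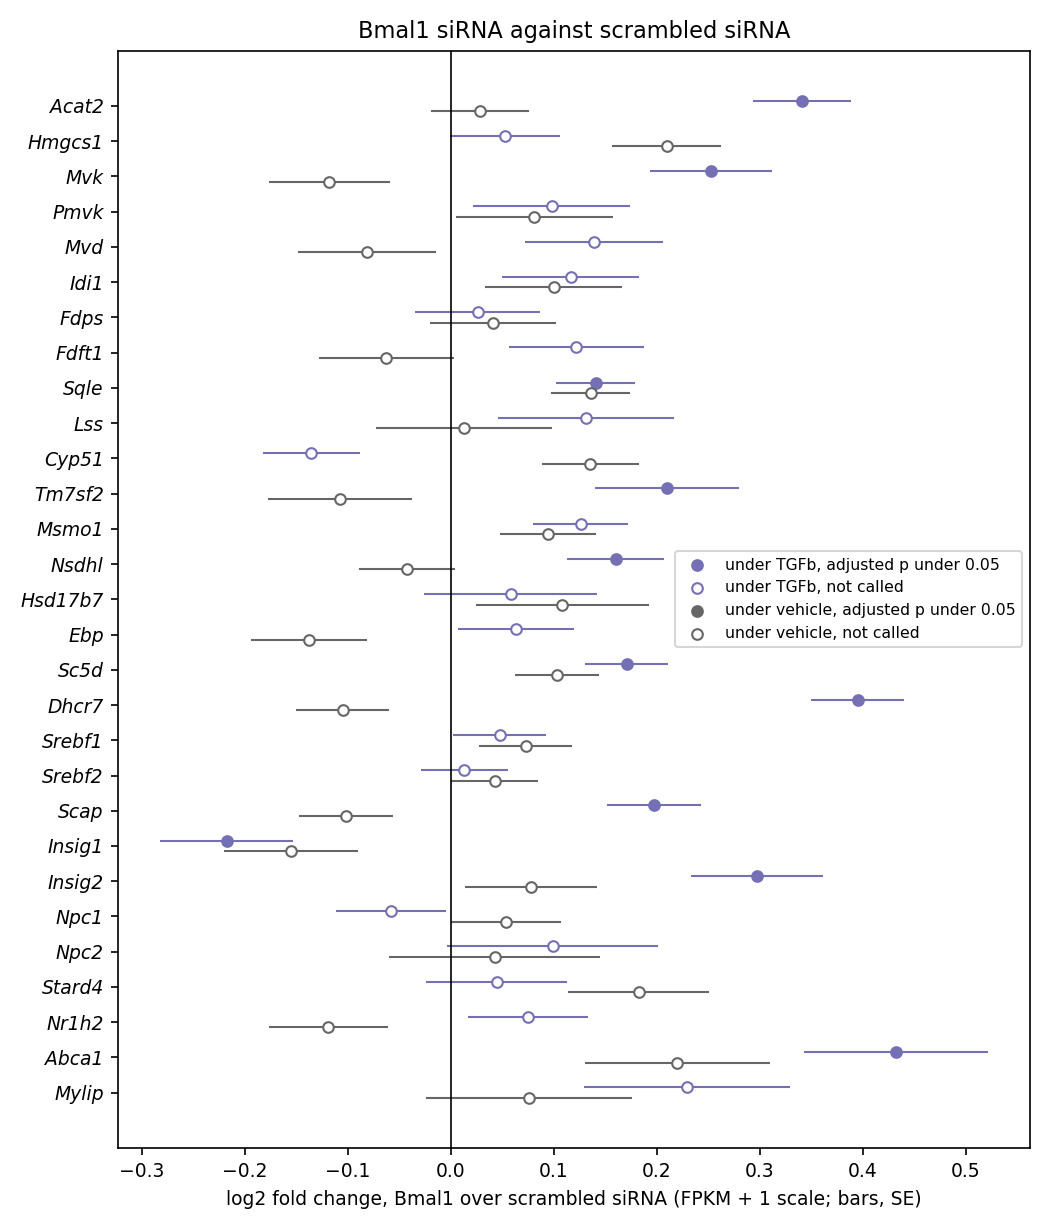
Log2 fold change of Bmal1 over scrambled siRNA for the 29 tested genes, under TGFb (purple, upper point) and under vehicle (grey, lower point); bars are standard errors and open points were not called. No grey point is filled, 11 purple points are, and Abca1, Dhcr7 and Acat2 reach furthest right.

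Whether the TGFb effect itself differed between the siRNAs was tested as their difference, the effect with Bmal1 siRNA minus the effect with scrambled siRNA. Of the 29 genes 6 were called, 5 above 0 and 1 below, beside 14.4% called over all tested genes, 8.86% above 0 and 5.52% below. The median was 0.07, close to the 0.06 of all tested genes. Without the second library of Bmal1 siRNA with TGFb, 4 genes were above 0 and 1 below, and with median-of-ratios scaling likewise 4 and 1, beside 5.13% of all genes above 0 and 7.06% below. On the log2(FPKM + 1) scale Dhcr7 had the largest difference (0.50, SE 0.064, 95% interval 0.36 to 0.64, adjusted p = 0.000315). It is the step between the fall of 40.9% with scrambled siRNA and that of 15.8% with Bmal1 siRNA given above. Mvk (0.37, adjusted p = 0.0113), Acat2 (0.31, adjusted p = 0.00924) and Scap (0.30, adjusted p = 0.00928) followed with smaller falls under Bmal1 siRNA. All 4 kept the call in each of 23 alternatives.

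The 2 other calls were less steady. Tm7sf2 (0.32, adjusted p = 0.0489) lost its call in 19 of 24 alternatives, and on its other line the difference was 0.05 (adjusted p = 0.907). Cyp51 was the gene below 0 (-0.27, SE 0.067, 95% interval -0.42 to -0.13, adjusted p = 0.0176). It was called in all alternatives but the fit without the second library of Bmal1 siRNA with vehicle (adjusted p = 0.0546). Bmal1 minus scrambled siRNA was 0.14 for Cyp51 under vehicle and -0.14 under TGFb, neither called. Under vehicle it was -0.12 for Mvk, -0.11 for Tm7sf2, -0.11 for Dhcr7, -0.10 for Scap and 0.03 for Acat2, none called. Vehicle groups thus also enter these differences. For Srebf1 (-0.03, 95% interval -0.16 to 0.11) and Srebf2 (-0.03, 95% interval -0.16 to 0.10) the difference of the TGFb effects was not called. Abca1, despite its large TGFb change, was not called either (0.21, 95% interval -0.06 to 0.49). The log2(FPKM + 1) scale understates this difference and its interval for so low a gene. Mean FPKM of Abca1 fell by 66.4% with Bmal1 siRNA and by 81.4% with scrambled siRNA. The difference was called in none of 22 alternatives (lowest limma adjusted p = 0.0763). Within a single stretch of the pathway, from lanosterol to cholesterol, the differences thus ran from -0.27 for Cyp51 to 0.50 for Dhcr7, as the plot of the differences on both scales shows.

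**Figure D5:**
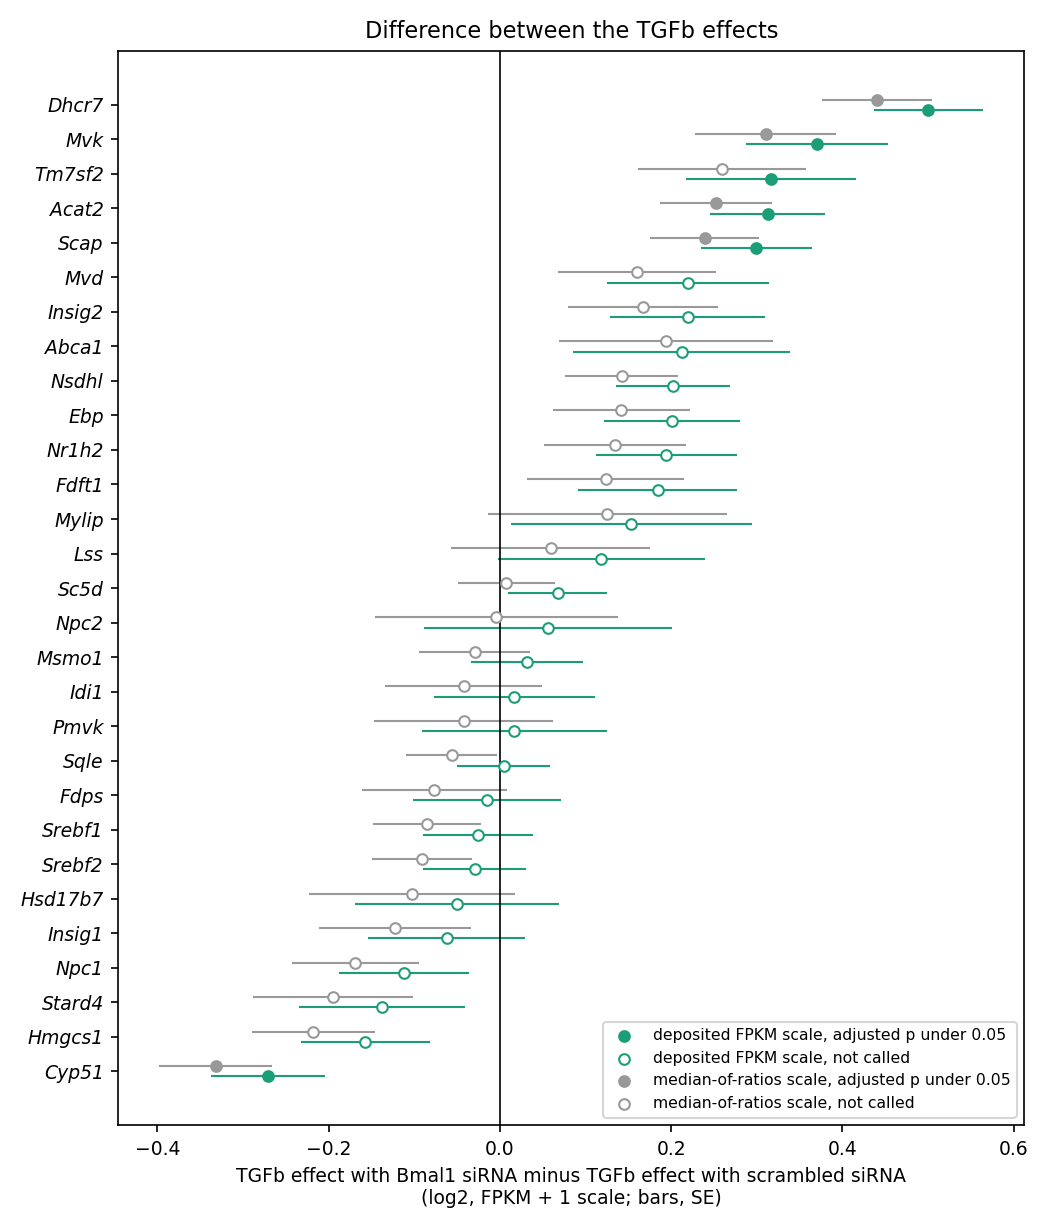
Difference between the TGFb effects (Bmal1 siRNA minus scrambled siRNA, log2) for the 29 tested genes, ordered by size, on the deposited FPKM scale (green, lower point) and after median-of-ratios scaling (grey, upper point); bars are standard errors and open points were not called. Dhcr7 at 0.50 and Cyp51 at -0.27 are the ends of the range, and the grey points lie slightly to the left of the green ones.

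Genes that lie next to these pathways were counted in 7 lists that are no part of the 31. Their counts are read against the share of all tested genes called, which was 8.9% higher and 10.1% lower for TGFb with Bmal1 siRNA, 16.4% higher and 29.1% lower for TGFb with scrambled siRNA, and 16.0% higher and 7.16% lower for Bmal1 siRNA under TGFb. Of 61 values that the naming rule picked in these lists, 34 were called in every alternative, and unless stated otherwise the genes named here are among them.

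Of 13 tested fatty acid enzymes linked to SREBP, 10 fell with TGFb under each siRNA by limma (76.9%), and none rose, also at an unadjusted p under 0.05. Without the second library of Bmal1 siRNA with TGFb 10 fell under each siRNA, and with median-of-ratios scaling 10 fell with Bmal1 siRNA and 8 with scrambled siRNA. The largest falls were those of Lpin1 (-0.46) and the desaturase Fads2 (-0.44) with Bmal1 siRNA, and of the elongase Elovl6 (-0.64) and Fads2 (-0.62) with scrambled siRNA. Between the siRNAs under TGFb, 4 of the 13 were higher with Bmal1 siRNA (3 without that library), led by Acss2 (0.38), which makes acetyl-CoA from acetate, and Elovl6 (0.33).

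Isoprenoid branches off the mevalonate pathway gave few calls. With TGFb and Bmal1 siRNA none of 11 was called by limma (1 had an unadjusted p under 0.05), also without the second library. With scrambled siRNA 3 of the 11 fell, a share near that of all tested genes; with median-of-ratios scaling 2 rose and none fell, so no direction is given for the list. Under TGFb the methyltransferase Icmt was lower with Bmal1 siRNA (-0.25), a call lost in 1 alternative. In the machinery of SREBP cleavage and sterol-regulated degradation, 1 of 10 fell with TGFb and Bmal1 siRNA and 3 with scrambled siRNA, again near the share of all genes. The ubiquitin ligase Rnf145 fell most (-0.46 with scrambled siRNA, and -0.36 with Bmal1 siRNA, a call lost in 3 alternatives). Erlin1 was higher with Bmal1 siRNA under TGFb (0.24).

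The lipoprotein receptors and genes that act with them went both ways. With TGFb and Bmal1 siRNA 1 of 8 rose and 3 fell, and with TGFb and scrambled siRNA 2 rose and 5 fell. Without the second library of Bmal1 siRNA with TGFb, 2 rose and 4 fell with Bmal1 siRNA, and 3 rose and 5 fell with scrambled siRNA. Sortilin (Sort1), a sorting receptor, was at 12.97, 17.57 and 12.5 FPKM with Bmal1 siRNA and TGFb, 8.95, 7.94 and 8.29 FPKM with scrambled siRNA and TGFb, 21.7, 22.4 and 21.2 FPKM with Bmal1 siRNA and vehicle, and 19.6, 21.0 and 21.8 FPKM with scrambled siRNA and vehicle. TGFb libraries were below vehicle libraries, by log2 -0.58 with Bmal1 siRNA and -1.21 with scrambled siRNA, and the difference of the effects was called (0.63, adjusted p = 0.00986). The scavenging receptor Lrp1 changed by 0.41 with Bmal1 siRNA and 0.78 with scrambled siRNA. The receptor Vldlr rose with scrambled siRNA (0.71, adjusted p = 0.00549). Under TGFb, Sort1 (0.69) and the HDL receptor Scarb1 (0.25) were higher and Lrp1 lower (-0.46) with Bmal1 siRNA.

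Of 12 genes of endosomal release, transfer and esterification, 1 rose and 2 fell with TGFb and Bmal1 siRNA, and 1 rose and 5 fell with scrambled siRNA; without the second library of Bmal1 siRNA with TGFb the counts were 3 lower, and 1 higher and 6 lower. These shares are near or little above those of all tested genes, and with median-of-ratios scaling 4 rose and 4 fell with scrambled siRNA. Scarb2, a lysosomal membrane protein, changed by -0.96 with TGFb and scrambled siRNA. Under TGFb Scarb2 was higher with Bmal1 siRNA, by 0.54, a call lost in 1 alternative. Without the second library of Bmal1 siRNA with TGFb the value was 0.35 (adjusted p = 0.0167).

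Of 7 other genes linked to LXR, 1 rose and 3 fell with TGFb and Bmal1 siRNA, and 3 fell with scrambled siRNA; without that library 2 rose and 3 fell, and 1 rose and 4 fell. Nr1d1, the clock repressor REV-ERB alpha and a known BMAL1 target, rose with TGFb and Bmal1 siRNA (0.49). The siRNA difference of Nr1d1 was -0.33 under TGFb, where it was -0.20 (adjusted p = 0.0704) without the second library of Bmal1 siRNA with TGFb, and -0.63 under vehicle, a call lost in 5 alternatives. The phospholipid enzyme Lpcat3 changed by -0.36 and -0.62 with TGFb under Bmal1 and scrambled siRNA, Rxra by -0.28 with Bmal1 siRNA, and the transporter Abca7 by -0.62 with scrambled siRNA. Under TGFb 4 of the 7 were higher with Bmal1 siRNA, Lpcat3 by 0.30; without the second library 2 were, and the difference of Pltp, 0.33 with all libraries, was then 0.21 (adjusted p = 0.135).

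Of 5 oxysterol and side chain enzymes, 1 fell with TGFb and Bmal1 siRNA (3 without the second library), and 4 fell and 1 rose with scrambled siRNA, with Cyp39a1 (-0.71), Ebpl (-0.50) and Ch25h (0.93) largest. Ch25h, which makes an oxysterol that blocks SREBP release, was at 0.40, 0.51 and 0.46 FPKM with Bmal1 siRNA and TGFb, 1.46, 2.07 and 1.18 FPKM with scrambled siRNA and TGFb, 0.62, 0.55 and 0.61 FPKM with Bmal1 siRNA and vehicle, and 0.43, 0.44 and 0.15 FPKM with scrambled siRNA and vehicle. Scrambled siRNA with TGFb stood above the other 3 groups. Under TGFb Ch25h was lower with Bmal1 siRNA (-0.81, adjusted p = 0.000481), where Ebpl was higher (0.39). Over the libraries of the other 3 groups together, Ch25h averaged less than the 0.5 FPKM required for testing. It was thus tested only through the group where it was high, and its low values rest on few fragments.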

How the data were processed

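RNA of 12 EMS404 libraries, 3 in each of 4 groups taken from the sample titles, was measured by RNA sequencing. The authors deposited 1 table of FPKM values, per the file headers, with 2 decimals. HISAT2 2.0.4, RSEM, Bowtie2 2.2.5 and DESeq2 appear in the submitters' processing notes with no roles, and mm10 as the build. The sources used here give neither strand use nor annotation version. Per the labels' protocols, RNA came from either of 2 kits and samples with an integrity number under 6.0 were discarded, with no record of the kit for each library. Triplicates are described as biological, but no label names separate cultures, so p-values cover only the spread between these libraries, which may be technical.

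Of 16290 lines, 555 without an identifier (1.304% to 1.464% of a library's FPKM) were left out, and for 15 repeated identifiers the line with the higher mean was kept. GENCODE M21 (mm10) gave symbols to 15694 of 15720 identifiers. Values were tested as log2(FPKM + 1), a pseudocount of 1, by limma (version 3.58.1, R 4.3.3) in a model of the 4 group means with trend over all libraries (degrees of freedom: residual 8, prior 5), as two-sided tests with Benjamini-Hochberg adjustment over the 11208 genes that averaged 0.5 FPKM or more. Fold changes on this scale understate changes of low genes. FPKM totals ran from 445472 to 483957 and give no depth; steps between low values gave a rough 27400000 fragments per library (quartiles 26600000 to 29000000, 12 genes, an assumed fragment of 150 bases), so values well below 1 FPKM rest on few fragments.

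Tested on simulated data, where some of 11198 genes were shifted by a log2 of 0.5, the fit recovered 88.4% (TGFb, Bmal1 siRNA), 92.8% (TGFb, scrambled siRNA), 87% (siRNA, TGFb), 89.9% (siRNA, vehicle) and 66.7% (difference of the TGFb effects). The shifts were put in a single group, with independent noise, and no gene as low as Abca1 or Mylip was shifted. Smaller shifts, the size of most siRNA differences given here, were not simulated. The shares therefore do not give the power for such differences or for low genes.

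The members and lists were chosen with earlier results of these data known. Values per library are given for the 3 largest called rises and falls of each comparison, up to 6 genes called for the difference of the TGFb effects or for the siRNA under vehicle, and Srebf1, Srebf2, Insig1, Abca1 and Mylip; in other lists the rule takes the 2 largest called in each direction, and those whose call held in every alternative are named with a few stated exceptions, a choice made after seeing the data, apart from 1 gene that is not reported here. Values of Hmgcs1, Insig2, Nr1h3, Sort1 and Ch25h were added after they were seen. Alternatives were other pseudocounts, filters, scalings and limma settings, a block for the replicate number, fits of only the compared groups, and each library left out.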

Additional observations from a re-analysis of the deposited data

Results flagged for a closer look

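Every value below is a difference of the TGFb effect between the siRNAs (effect with Bmal1 siRNA minus effect with scrambled siRNA, log2, limma adjusted p under 0.05), and is listed because the test of that difference passed. Among the cholesterol genes it was 0.5 for Dhcr7, 0.37 for Mvk, 0.317 for Tm7sf2, 0.313 for Acat2, 0.299 for Scap and -0.271 for Cyp51. Among neighbouring genes it was above 0 for Sort1 (0.631), Ebpl (0.382), Abca7 (0.372), Acss2 (0.361), Elovl6 (0.313), Stard3 (0.305), Scarb1 (0.298) and Lpcat3 (0.259). It was below 0 for Ch25h (-1.06), Vldlr (-0.873), Soat1 (-0.371) and Scd2 (-0.28). For the targeted gene Arntl it was -0.767. Vldlr stood at 10.9, 16.1 and 12.5 FPKM with Bmal1 siRNA and TGFb, 12.6, 15.4 and 16.3 FPKM with scrambled siRNA and TGFb, 11.5, 15.7 and 17.4 FPKM with Bmal1 siRNA and vehicle, and 6.37, 9.49 and 10.3 FPKM with scrambled siRNA and vehicle, so scrambled siRNA with vehicle was the group that stood apart. Of the neighbouring genes, Sort1 and Scarb1 kept the call in every alternative run for them. Ch25h also kept it where it was tested, but it entered the test only through its high values in scrambled siRNA with TGFb. The same group sets its difference, so its calls are not independent of the filter and are not read as support. Each of the other neighbouring genes lost the call when any 1 of at least 6 libraries was left out. The difference of Abca7 missed the threshold with median-of-ratios scaling (adjusted p = 0.0632), as did that of Acss2 (adjusted p = 0.0628). Values of the other neighbouring genes on that scale are not given here. Over all alternatives Lpcat3 lost its call in 16, and Ebpl, Elovl6 and Scd2 in 13 each.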

How the results depend on the processing

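No called gene among the 29 changed direction under any of the alternatives run for it, while 22 gene values that were not called changed sign in at least 1, of which 9 belong to the siRNA comparison under TGFb and 8 to the difference of the effects. Of the calls as reported, 18 of 22 for TGFb with Bmal1 siRNA, 23 of 27 for TGFb with scrambled siRNA, 4 of 11 for the siRNA under TGFb and 4 of 6 for the difference of the TGFb effects held in every alternative. Leaving out each library in turn gave 18 to 23 called genes for TGFb with Bmal1 siRNA, 24 to 28 for TGFb with scrambled siRNA, 8 to 12 for the siRNA under TGFb, 0 to 1 for the siRNA under vehicle and 4 to 7 for the difference of the TGFb effects. For the siRNA under TGFb (11 called) median-of-ratios scaling gave 7, only the groups compared 7 and leaving out both second TGFb libraries 6; the last alternative was chosen after seeing the data, as was the other line of Tm7sf2. For the siRNA under vehicle (0 called) array weights gave 5, leaving out both second TGFb libraries 1 and the replicate block 1, in the last 2 cases Hmgcs1. For the difference of the TGFb effects (6 called) array weights gave 10; that fit did not fully converge, and no fit of only the groups compared exists for it. The causes were not tested. The replicate block gave 25, 26, 11 and 5 calls for TGFb with Bmal1 siRNA, TGFb with scrambled siRNA, the siRNA under TGFb and the difference of the TGFb effects. Same-numbered libraries of different groups correlated from -0.161 to 0.475 in their deviations from the group means. All 3 numbers were above 0.1 only between Bmal1 siRNA with vehicle and scrambled siRNA with TGFb (0.203 to 0.419), which are not compared, and 6 of 12 libraries were closest to their own number, so the numbers were not taken to pair the libraries. Abca1, Mylip and Nr1h3 are limited by depth, at about 100, 49 and 14 fragments in their lowest library.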
